A study of Rattus norvegicus with 3 samples.

Results

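On 3 rat expression arrays, 8 genes of blood vessel endothelium and of leukocyte adhesion were read: Flt1, Kdr, Ly6c, Vcam1, Icam1, Pecam1, Sele and Vwf. They were chosen by name, with earlier results of these data known. Every probe set that the platform's annotation gives to one of these symbols alone was kept. All 8 genes had at least 1 such probe set, which made 11 probe sets among 8740 that are not controls, and 8 genes among 4736. Icam1, Vcam1 and Vwf had a pair of probe sets each. The samples are total RNA with pineal gland and adrenal medulla named together as the source, in a time course labelled 0.0 h, 0.1 h and 1.0 h. The labels do not say from what event these hours count, and whether 0.1 h is a sampling time as written could not be settled, so label order below means only 0.0 h, 0.1 h, 1.0 h. What the rats were treated with, their strain, sex and age, and how many animals were pooled are not stated in these labels. Each time label has a single array (1 each), which leaves every difference unreplicated and without a p-value.

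Flt1 and Kdr encode receptors for vascular endothelial growth factor, VEGF. Kdr carries most of the growth signal in endothelium, and Flt1 binds VEGF tightly and also exists in a soluble form that takes it up. Endothelium that meets inflammatory cytokines puts out E-selectin (Sele), which slows leukocytes, and then the immunoglobulin-like proteins ICAM-1 and VCAM-1, which bind leukocyte integrins and hold the cells. PECAM-1 sits at the contacts between endothelial cells, and von Willebrand factor (Vwf) is stored in endothelium and platelets and is released at a wound. Ly6c encodes a small surface protein anchored by a lipid. In the mouse it is used to tell apart monocytes and is also found on endothelium and lymphocytes.

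The transcription factor NF-kB acts on the adhesion genes through short sites in their promoters, so the windows of Icam1 and Vcam1, the adhesion molecules that were measured above the floor on all arrays, are shown. Each runs from 250 bases before to 50 bases after a transcript start of RefSeq in the build GRCr8, in the direction of the gene. RefSeq windows were matched for 5 of the 8 genes: Vcam1, Icam1, Flt1, Sele and Kdr. Capitals mark matches to the letters GGNNNTTCC, searched on both strands. Icam1 is at chr8:27829595-27829894 on the plus strand, and Vcam1 at chr2:206742734-206743033 on the minus strand.

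Icam1: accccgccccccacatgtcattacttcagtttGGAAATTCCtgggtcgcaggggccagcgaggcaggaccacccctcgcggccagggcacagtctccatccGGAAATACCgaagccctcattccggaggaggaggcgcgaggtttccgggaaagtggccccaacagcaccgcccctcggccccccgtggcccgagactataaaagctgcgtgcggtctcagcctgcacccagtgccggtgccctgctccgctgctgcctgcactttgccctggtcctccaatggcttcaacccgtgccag

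Vcam1: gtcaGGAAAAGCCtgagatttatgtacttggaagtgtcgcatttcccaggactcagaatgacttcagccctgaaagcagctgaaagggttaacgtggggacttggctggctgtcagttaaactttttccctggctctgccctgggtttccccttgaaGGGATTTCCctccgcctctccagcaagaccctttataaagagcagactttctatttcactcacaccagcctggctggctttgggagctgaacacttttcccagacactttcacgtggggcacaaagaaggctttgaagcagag

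In Icam1 the match GGAAATTCC began 218 bases before the start and GGAAATACC 149 bases before it. In Vcam1 GGAAAAGCC began 246 bases and GGGATTTCC 93 bases before the start. The windows of Flt1 and Kdr held no match to these letters. That of Sele held none either, but its bases from the start on open with ATG, the letters of a translation start. Whether it covers the Sele promoter was not tested, so nothing is read from it. Among all 33469 rat promoter windows of this length 18.3% held a match, so a match alone is common. The letters TATAAA on the gene's own strand began 53, 60 and 75 bases before the start in Icam1, Vcam1 and Flt1, and 8.8% of all windows hold them.

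The deposited intensities were linear and had been brought to a common mean, with array medians of 401.5, 430.2 and 457.6 at 0.0 h, 0.1 h and 1.0 h. They are given below after a shift of each array to equal medians. The 40th percentile of all values, an intensity of 262.9, served as a floor, and a fold between arrays was taken only where both were above it. Where 1 of the 2 arrays lay below, the fold is a bound against the floor, written "at least". No detection calls were used, so the floor is a chosen limit and not a measured background. Of the non-control probe sets 58.8%, 60.5% and 60.9% lay above it in label order, and of the 11 probe sets described here 8, 7 and 8. The ratio of the 3' to the 5' control probe set of beta-actin, which grows as RNA breaks down, was 10.4, 17.8 and 44.4 in label order, and that of GAPDH 15.3, 18.6 and 14.1. Its part in any difference below was not tested.

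**Figure D1:**
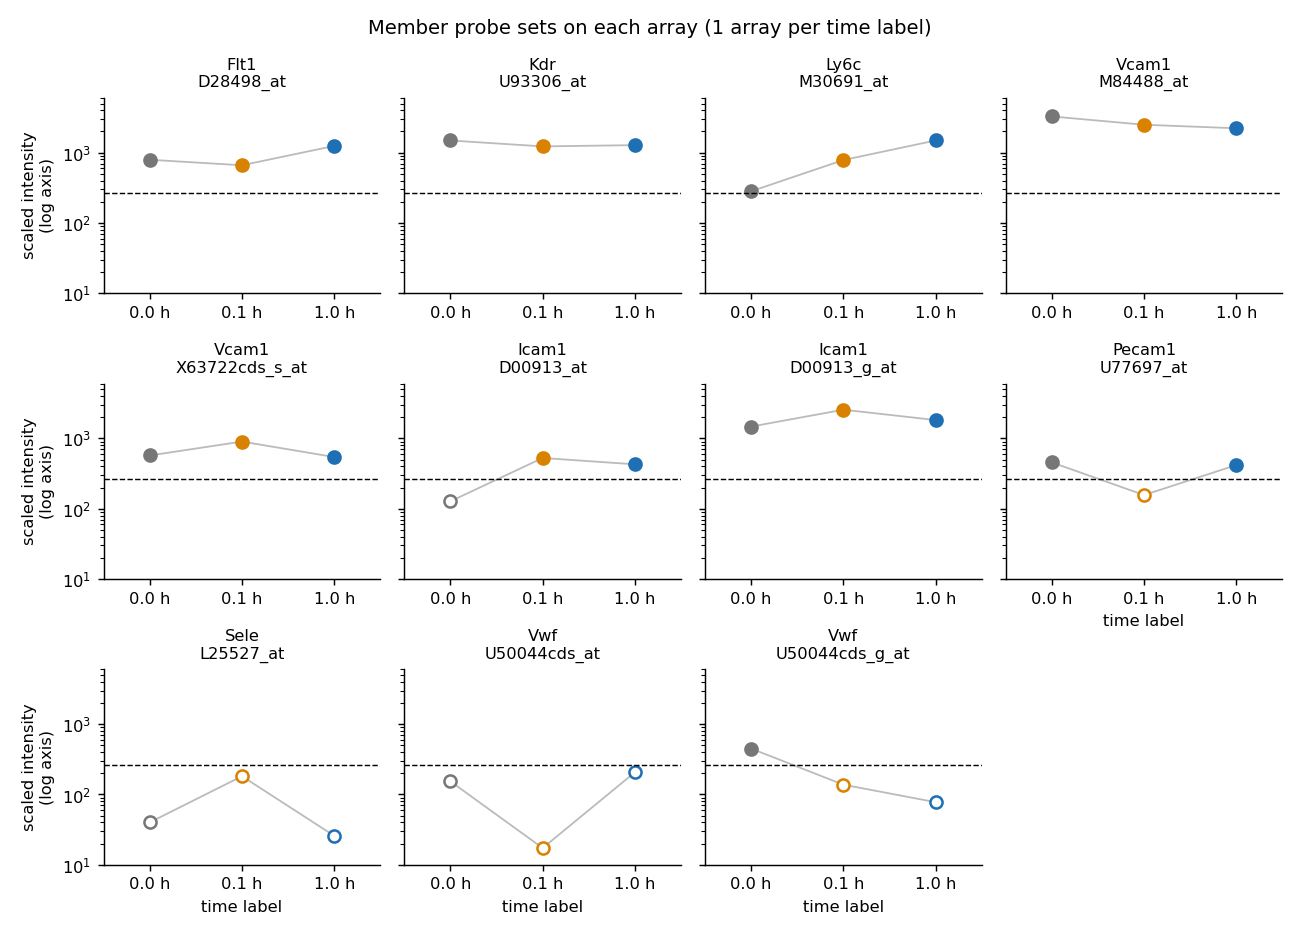
Scaled intensity (log axis) of each of the 11 probe sets on the 0.0 h, 0.1 h and 1.0 h arrays, 1 point per array; the dashed line is the floor of 262.9, and open points lie below it. Ly6c climbs over the 3 time labels, Icam1 is highest at 0.1 h on both probe sets, and the Sele points and those of 1 Vwf probe set are all open.

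Of the 11 probe sets, 6 (of 5 genes) were above the floor on all 3 arrays. They belonged to Flt1, Kdr, Ly6c, Icam1 and, with both of its probe sets, Vcam1. Levels of different probe sets depend on the probes and are not ranked against each other.

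Ly6c (M30691_at) had scaled intensities of 282.2, 784.8 and 1490 in label order. It was just above the floor on the first array and clearly above it on both later ones. The log2 difference of 0.1 h over 0.0 h was 1.48, or 2.78-fold higher, and that of 1.0 h over 0.0 h was 2.40, or 5.28-fold higher. Between 1.0 h and 0.1 h it was 0.92. Only 67 of 2993 genes measured in the first comparison stood at least as far apart in either direction, Ly6c included, and 3 of 3029 in the second. Among the 200 genes nearest to Ly6c in mean level, the log2 differences between 1.0 h and 0.0 h had an SD, taken from the median absolute deviation, of 0.53, and none of those genes was as far apart. Ly6c was chosen with earlier results of these data known, so its place among other genes is a description and no independent test.

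The size of the Ly6c difference rests on a dim 0.0 h value. With the floor at the 60th percentile, an intensity of 731.3, the 0.0 h array lay below it. Ly6c was then at least 2.05-fold higher for 1.0 h over 0.0 h, and the bound for 0.1 h over 0.0 h was 1.07-fold. Over the scalings and floors that left a measured value, the log2 difference ran between 1.20 and 1.48 for 0.1 h over 0.0 h and between 2.31 and 2.60 for 1.0 h over 0.0 h. Ly6c has a single probe set here, so no other reading of the gene was possible.

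Ly6i, another gene of the Ly6 family, was looked up after the Ly6c values were seen. Its probe set M30689_at had 89.8, 250.8 and 596.3 in label order, below the floor at 0.0 h and 0.1 h, and was at least 2.27-fold higher at 1.0 h than at 0.0 h. Ly6al was read by a pair of probe sets, with 352.5, 389.5 and 467.0 on one and 802.2, 429.6 and 493.8 on the other, and these went in opposite directions between 1.0 h and 0.0 h. Ly6l, looked up along with Ly6i, had 112.7, 85.6 and 40.6, all below the floor and lowest at 1.0 h. Whether the Ly6c probes also bind transcripts of related Ly6 genes was not tested.

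By the distance in the plane of the differences 0.1 h minus 0.0 h and 1.0 h minus 0.0 h, the 3 genes nearest to Ly6c among 2916 were Cox7b, Coro1a and Prr13. Cox7b, which encodes a cytochrome c oxidase subunit, had intensities of 371.0, 1253 and 1508 and lay at a distance of 0.47 on the log2 scale. Coro1a, which encodes coronin, a partner of actin in white blood cells, had 450.9, 918.0 and 1852 at a distance of 0.58. Prr13 had 1343, 4855 and 4828 at a distance of 0.67. This likeness is over 3 arrays only.

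Flt1 (D28498_at) had 792.5, 661.3 and 1247 in label order. The 1.0 h array was the highest, and the other 2 lay near each other. It was 1.57-fold higher at 1.0 h than at 0.0 h and 1.20-fold lower at 0.1 h than at 0.0 h. Between 1.0 h and 0.1 h it was 1.89-fold higher, a log2 difference of 0.91. In that comparison 371 of 3042 genes stood at least as far apart, and 26 of the 200 genes of like level.

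Kdr (U93306_at) had 1489, 1227 and 1279. Its 3 values lay close together, with the 0.0 h array highest. The log2 differences were -0.28 for 0.1 h over 0.0 h, -0.22 for 1.0 h over 0.0 h and 0.06 for 1.0 h over 0.1 h. All 3 were smaller in size than the SD of the 200 genes of like level, which was 0.54, 0.39 and 0.61 in the same order. Between 1.0 h and 0.0 h Flt1 was higher and Kdr lower in value, each by less than 2-fold. Under spike-in scaling that Kdr difference was -0.02, so no opposite direction is read for the 2 VEGF receptor genes.

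Icam1 was read by 2 probe sets whose names share a sequence entry. D00913_g_at had 1472, 2559 and 1824 in label order. D00913_at had 127.4, 526.5 and 428.0, with the 0.0 h array below the floor. Both were highest at 0.1 h and lowest at 0.0 h. The brighter probe set was 1.74-fold higher at 0.1 h than at 0.0 h, with a log2 difference of 0.80, and 1.24-fold higher at 1.0 h than at 0.0 h. For the dimmer, the bound for 0.1 h over 0.0 h was at least 2.00-fold higher, and for 1.0 h over 0.0 h at least 1.63-fold. Averaging the 2 gave log2 differences of 1.42 and 1.03, which use the 0.0 h value below the floor. Of 2993 genes, 535 stood at least as far apart as the brighter Icam1 probe set between 0.1 h and 0.0 h.

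The 2 probe sets of Vcam1 disagreed. M84488_at had 3272, 2495 and 2221 in label order, highest at 0.0 h. X63722cds_s_at had 571.5, 901.3 and 543.0, highest at 0.1 h. Between 0.1 h and 0.0 h the log2 differences were -0.39 on the brighter and 0.66 on the dimmer. For 1.0 h over 0.0 h they were -0.56 and -0.07, both lower at 1.0 h, although the dimmer was 0.12 when arrays were scaled to the spike-in controls. For 1.0 h over 0.1 h they were -0.17 and -0.73. Over 394 genes, the brightest probe set was set against the second-brightest of those whose names do not end in _g_at, both above the floor. Their readings of the 0.1 h over 0.0 h difference were a median of 0.46 apart on the log2 scale. The Vcam1 pair was farther apart than that, and no direction is given for Vcam1 at 0.1 h.

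Pecam1 (U77697_at) had 455.8, 156.6 and 417.3 in label order. The 0.1 h array was below the floor, and the outer time labels were nearly level. It was at least 1.73-fold lower at 0.1 h than at 0.0 h, and 1.09-fold lower at 1.0 h than at 0.0 h. With the floor at the 20th percentile, an intensity of 82.1, the log2 difference of 0.1 h over 0.0 h was -1.60.

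Vwf was above the floor on 1 array with 1 of its 2 probe sets. U50044cds_g_at had 449.8, 137.9 and 77.7 in label order, at least 1.71-fold lower on each later array than at 0.0 h. U50044cds_at had 153.8, 17.3 and 207.4, all below the floor. At the 20th percentile floor the first of these was 3.39-fold lower at 0.1 h than at 0.0 h and at least 5.64-fold lower at 1.0 h. The 2 probe sets put the 1.0 h array in opposite places, below 0.0 h on one and above it on the other.

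Sele (L25527_at) had 40.1, 181.9 and 25.8, all below the floor. The 0.1 h value was the highest of them, and against the 20th percentile floor it was at least 2.19-fold higher than at 0.0 h. E-selectin RNA was therefore not measured above the main floor on any array.

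**Figure D2:**
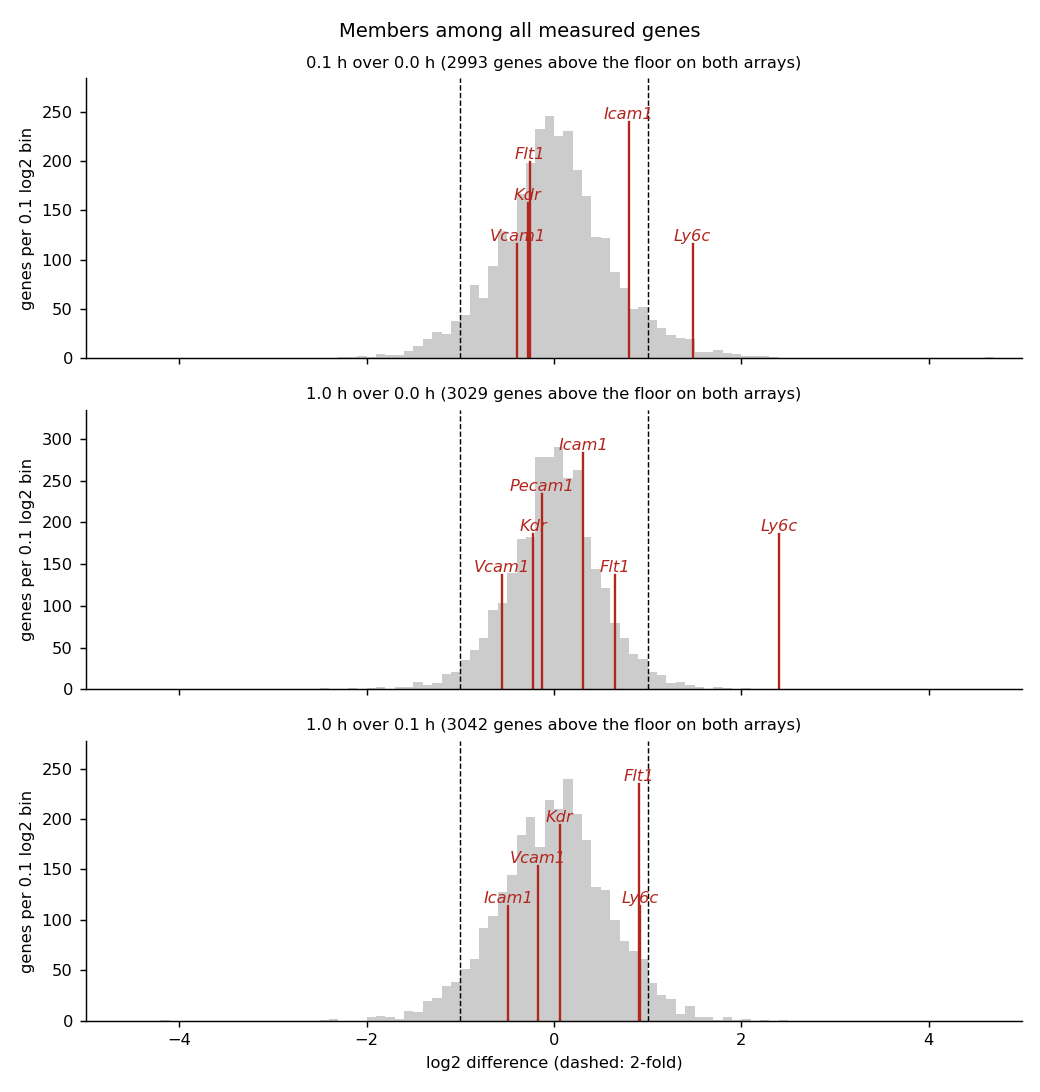
Histograms of log2 differences of all genes above the floor on both arrays of a comparison, with the genes described here as red lines (line height only separates the names); dashed lines mark 2-fold. Ly6c lies beyond the upper line in the comparisons with 0.0 h, at 1.48 and 2.40, and the others lie within both lines.

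As a group, the genes did not differ in one direction. Between 0.1 h and 0.0 h 5 genes were measured, each on its brightest probe set, and 1 was at least 2-fold higher, Ly6c, while 0 were at least 2-fold lower. Of all genes 5.65% were at least 2-fold higher and 4.71% lower. The median of the 5 was -0.26, and that of all 2993 genes 0.00. In the 1.0 h over 0.0 h comparison 6 genes were measured, of which 1, Ly6c, was at least 2-fold higher and 0 lower, against 2.41% and 2.61% of all genes. The median was 0.09, and that of all 3029 genes 0.01. Between 1.0 h and 0.1 h 0 of 5 were at least 2-fold apart, against 4.11% of all genes higher and 5.03% lower, with medians of 0.06 for the 5 and 0.00 for all 3042. The 0.0 h array is shared by both comparisons made with it.

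Scaling moved these readings. With the arrays set equal on the 9 spike-in control probe sets, the median of all genes was -0.28, 0.21 and 0.47 in the 3 comparisons in the order above, and the median of the genes described here -0.53, 0.29 and 0.53. Counts of all genes were then 80 higher and 305 lower between 0.1 h and 0.0 h, against 169 and 141 with median scaling. They were 153 and 40 between 1.0 h and 0.0 h, against 73 and 79, and 511 and 30 between 1.0 h and 0.1 h, against 125 and 153. On the values as deposited the last 2 comparisons had 90 and 66, and 174 and 126. Ly6c and Flt1 passed 2-fold between 1.0 h and 0.1 h on the deposited values, with log2 differences of 1.01 and 1.00, and under spike-in scaling, with 1.39 and 1.38.

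**Figure D3:**
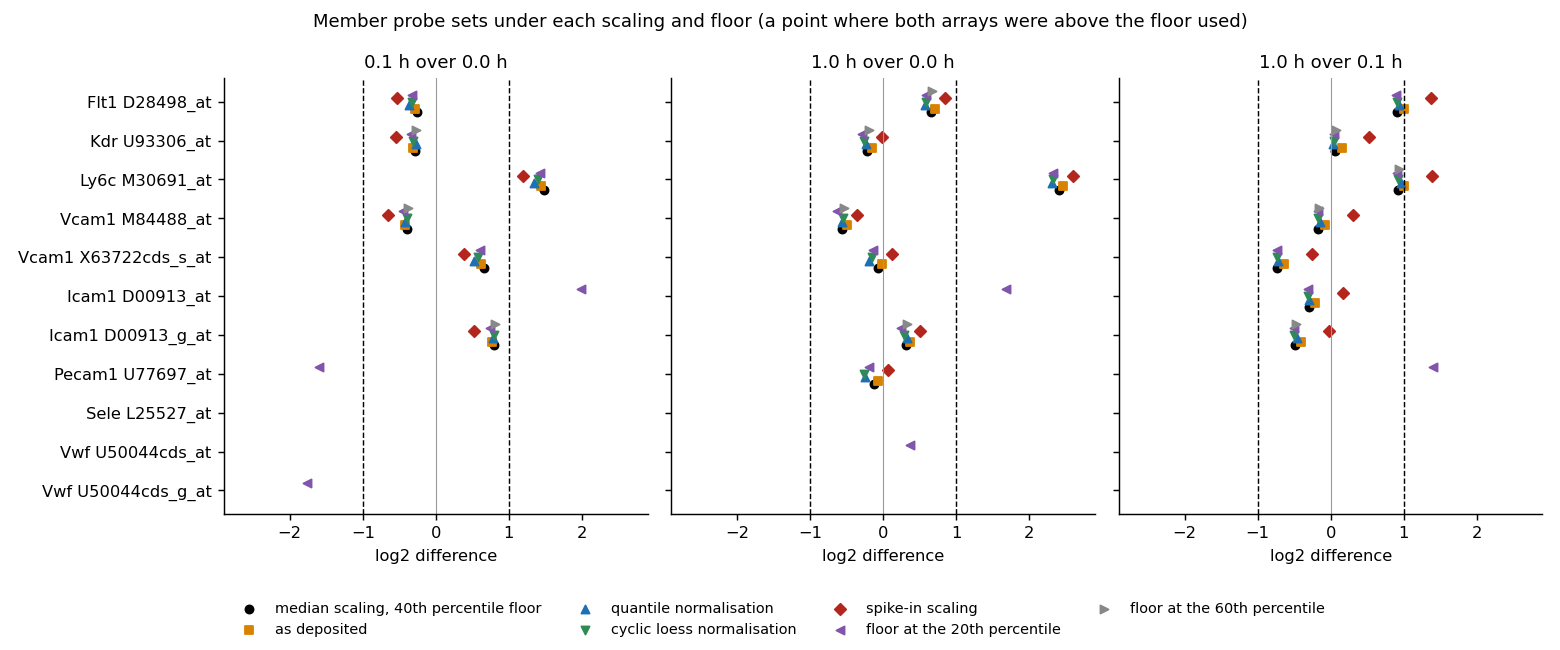
Log2 differences of each probe set in the 3 comparisons, 1 marker per scaling or floor, drawn where both arrays were above the floor used; dashed lines mark 2-fold. Ly6c stays to the right of the 2-fold line in the first 2 panels wherever it has a marker, and spike-in scaling (red) moves all probe sets of a panel together.

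The related genes were read from lists drawn up by name, with 1 probe set per gene and median scaling. Counts in these lists and in the cell type markers stand beside the shares of all genes. Between 0.1 h and 0.0 h these were 5.65% at least 2-fold higher and 4.71% lower. They were 2.41% and 2.61% between 1.0 h and 0.0 h, and 4.11% and 5.03% between 1.0 h and 0.1 h. Of the VEGF ligands, co-receptors and other angiogenic genes, 12 of 25 were on the array and 0 were at least 2-fold apart in any comparison. Vegfa, the main ligand of Kdr, had 1124, 885.1 and 1259 in label order, and Notch1, a receptor in vessel branching, 690.3, 1002 and 1161. Other Vegfa probe sets differed in order. One, with 948.0, 950.2 and 778.4, was lowest at 1.0 h. Another, with 516.9, 55.9 and 694.1, was below the floor at 0.1 h, and the last, with 171.6, 171.5 and 290.8, was above it at 1.0 h alone. Under spike-in scaling 1 gene was at least 2-fold higher in each comparison with 1.0 h. The list medians were -0.12, 0.15 and 0.21 for 0.1 h over 0.0 h, 1.0 h over 0.0 h and 1.0 h over 0.1 h.

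Of 31 other adhesion and junction genes of the vessel wall, 17 were on the array. Between 0.1 h and 0.0 h 1 of 14 was at least 2-fold higher, and in the other 2 comparisons 0 were 2-fold apart. The 1 was Cd44, a receptor for hyaluronan, with 351.3, 703.1 and 515.1, which lay at the 2-fold limit with a log2 difference of 1.00 and fell short of it under each other scaling. Ezr, which encodes a linker of membrane and actin, had 6864, 3435 and 4449 and was just short of 2-fold lower between 0.1 h and 0.0 h. As deposited and with quantile and loess scaling, 0 of the 14 were at least 2-fold higher and 1 lower in that comparison. The 1 was Ezr as deposited, at -1.03, and the neural adhesion gene Ncam1 with quantile and loess scaling, at -1.04 and -1.02. Under spike-in scaling 0 were higher and 2 lower there, and 2 were higher between 1.0 h and 0.1 h. The list medians were -0.13, 0.03 and 0.13 in the same order. Of 13 leukocyte ligands of the adhesion proteins, 5 were on the array and 3 above the floor, with Cd44 again the 1 that was at least 2-fold higher at 0.1 h. The integrin chain gene Itgb1, whose product pairs with others to bind VCAM-1, had 17363, 26248 and 15221. Itgam, a chain of an ICAM-1 receptor, was below the floor on all arrays.

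Of 31 cytokine and NF-kB genes that act on adhesion molecules, 18 were on the array, and 1 of 8 measured was at least 2-fold higher in each comparison with 0.0 h. This was Il6, at 2.05-fold for 0.1 h and 2.41-fold for 1.0 h. The 0.1 h difference was under 2-fold with quantile, loess and spike-in scaling, at 0.92, 0.97 and 0.76 on the log2 scale, and with the 20th percentile floor, at 0.98. The 1.0 h difference stayed above 2-fold under all of these. Il6 also had a dimmer probe set with 171.7, 45.6 and 223.5, all below the floor and lowest at 0.1 h. Under spike-in scaling 2 of 8 genes of the list were at least 2-fold higher between 1.0 h and 0.0 h. All genes then had 153 of 3029. Between 1.0 h and 0.1 h it was also 2 of 8, against 511 of 3042. Tnf and Il4, which switch on Vcam1 in cultured endothelium, were below the floor on all 3 arrays. Irf1, a factor that acts on Vcam1 and Icam1 after cytokines, had 8548, 15494 and 15235. Nfkb1, an NF-kB subunit gene, had 9622, 6387 and 10602. The list medians were 0.45, 0.35 and 0.08.

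Interferon-induced and other Ly6 genes had 15 of 27 on the array. Between 0.1 h and 0.0 h 2 of 12 were at least 2-fold higher, against 5.65% of all genes. Between 1.0 h and 0.0 h 3 of 12 were, against 2.41%, with 0 at least 2-fold lower in both. Under spike-in scaling the first count was 1 higher and 3 lower. Oas1a, an antiviral enzyme gene, had 1130, 2441 and 2870. Tap1, which carries peptides for antigen display, had 299.8, 780.5 and 978.5, and Irf7 3036, 5350 and 6414. These 3 were named for being at least 2-fold higher than at 0.0 h, so their order says nothing further. A second probe set of Tap1 had 283.1, 1126 and 698.2, highest at 0.1 h. Other genes of the list were lowest at 0.1 h: B2m, the light chain of class I antigen molecules, had 36490, 20792 and 37392, Stat2 had 1960, 1105 and 2191, and Mx1 had 950.8, 670.7 and 1113. Of the 12 measured between 0.1 h and 0.0 h, 7 were higher and 5 lower in value. The list medians were 0.35, 0.26 and 0.24.

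Clotting and vascular tone genes had 19 of 31 on the array, and 1 of 13 was at least 2-fold higher between 0.1 h and 0.0 h. It was Agtr1a, an angiotensin receptor gene, with 276.4, 687.6 and 411.5 on its brightest probe set. Another of its probe sets had 557.8, 91.8 and 342.5, the opposite order. Between the other pairs of arrays 0 of 14 were 2-fold apart, with F3, the tissue factor gene, just under that limit between 1.0 h and 0.1 h (494.1, 476.2 and 950.5 in label order). F3 was past the limit in that comparison as deposited and with quantile scaling, at 1.09 and 1.01 on the log2 scale, and 2 of 14 were under spike-in scaling, F3 at 1.47 and the endothelin-processing gene Ece1 at 1.22. Under spike-in scaling F3 was also past it between 1.0 h and 0.0 h, at 1.14. The list medians were 0.21, 0.16 and -0.03.

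**Figure D4:**
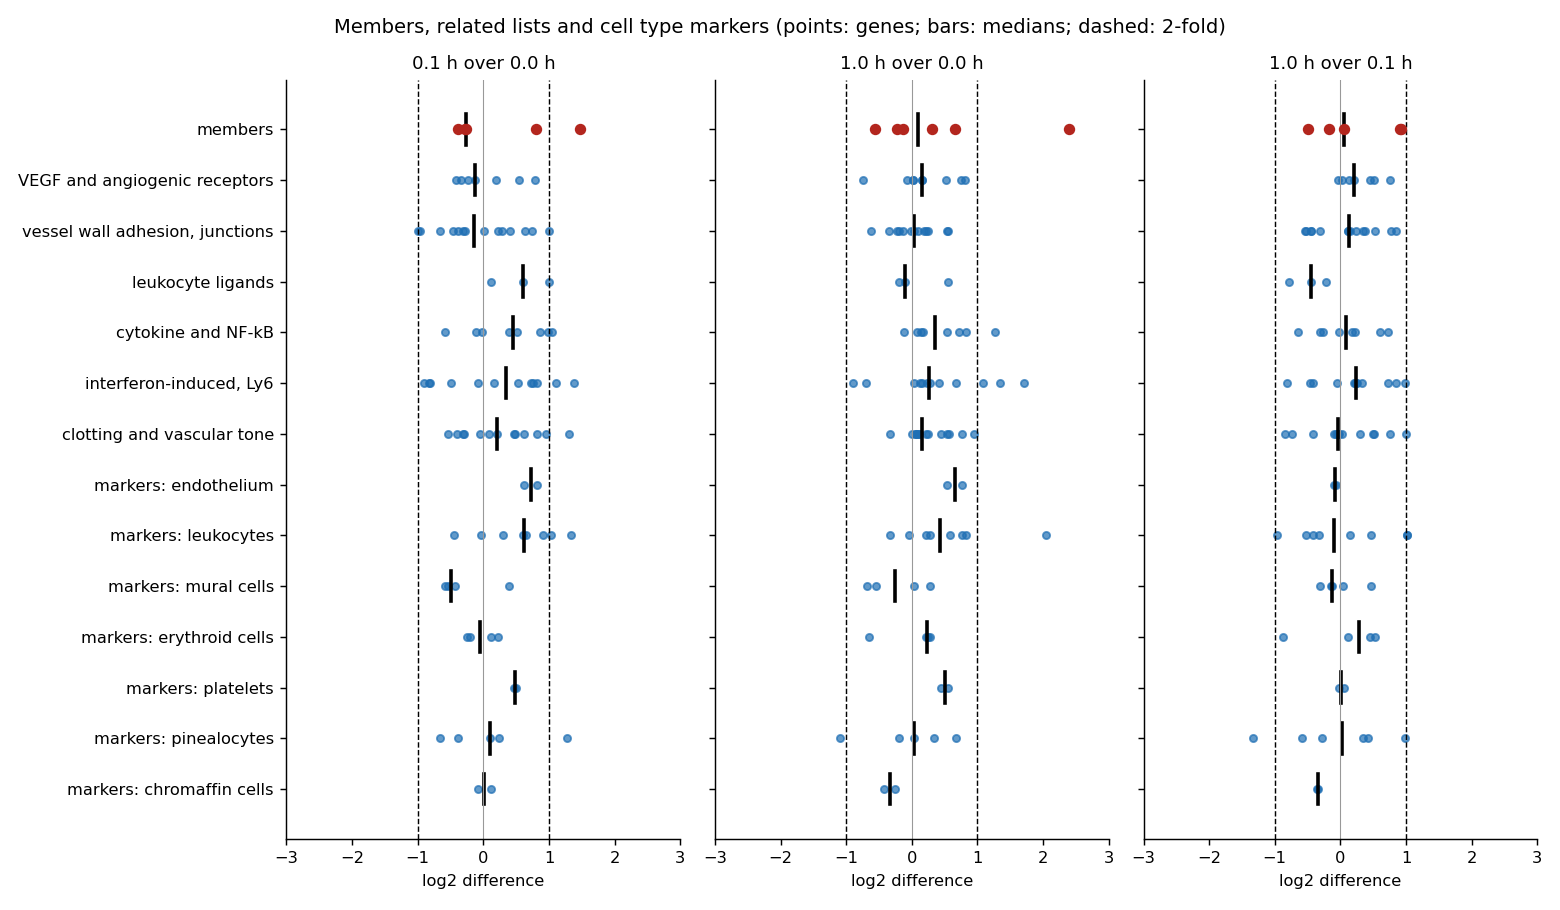
Log2 differences of the genes described here (red, top row), of the related lists and of cell type markers (blue), 1 point per gene above the floor on both arrays; bars are medians and dashed lines mark 2-fold. Ly6c is the rightmost red point in the comparisons with 0.0 h, and Coro1a the rightmost leukocyte marker between 1.0 h and 0.0 h, at 2.04.

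Endothelium was checked with markers other than the 8 genes. Of 21 such markers 6 were on the array. Thbd, the thrombomodulin gene, had 1222, 1877 and 1758 in label order, and Nos3, the endothelial nitric oxide synthase gene, 476.9, 844.6 and 810.6. On these probe sets both were lowest at 0.0 h, with a median over the pair of 0.72 and 0.65 on the log2 scale for 0.1 h and 1.0 h over 0.0 h. A second Nos3 probe set, with 557.3, 422.3 and 575.2, was lower at 0.1 h. Another, with 350.8, 409.5 and 446.8, rose in label order, and the remaining Nos3 probe sets were below the floor on all arrays. A second Thbd probe set was also below it throughout, with 223.7, 172.5 and 86.1, highest at 0.0 h. Ace was above the floor at 0.1 h alone, and Sox17, Cav1 and Lyve1 were below it on all arrays. The summed intensity of the 6 was 2047, 3371 and 2874. This sum rests on a few bright probe sets, includes values below the floor and gives no cell share. In these tissue samples a change in the number of endothelial cells and a change in RNA per cell cannot be told apart.

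Leukocyte markers did not all go the way of Ly6c. Of 25, 17 were on the array, and their summed intensity was 8282, 11842 and 11638 in label order. The limits of the endothelial sum hold for this sum too. Between 0.1 h and 0.0 h 2 of 8 were at least 2-fold higher, Ptprc, the common leukocyte antigen, and Coro1a, and between 1.0 h and 0.0 h 1 of 8, Coro1a. The 0.1 h difference of Coro1a was 1.03 on the log2 scale with median scaling, and under 2-fold as deposited and with quantile, loess and spike-in scaling, at 0.99, 0.90, 0.97 and 0.75, which left 1 of 8, Ptprc. Between 1.0 h and 0.1 h 2 of 8 were at least 2-fold higher, Coro1a and Cd74, an antigen presentation gene. Ptprc had 285.5, 722.1 and 503.8, with its other 2 probe sets below the floor. Of the 8 measured in each comparison with 0.0 h, 6 were higher and 2 lower in value. Cd4 with 375.7, 366.2 and 39.6, Cd79b with 268.8, 64.2 and 58.3, and Cd53 with 349.2, 247.9 and 275.0 were highest at 0.0 h. Cd8b had 431.6, 812.6 and 415.7. The T cell genes Cd3g, Cd3d and Cd8a and the macrophage genes Csf1r and Cx3cr1 were below the floor on all 3 arrays. The part of blood or resident leukocytes in the Ly6c difference was not tested.

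Markers of other cells were read in the same way; their sums rest on a few bright probe sets, include values below the floor and give no cell shares. Mural cell markers had 7 of 10 on the array and a sum of 2833, 2780 and 2944, with Des and Cnn1 below the floor throughout. Of the 4 measured between 0.1 h and 0.0 h, Acta2, Cspg4 and Myh11 were lower in value, with log2 differences of -0.59, -0.54 and -0.43. Tagln was higher, at 0.39, and the median of the 4 was -0.48. Pdgfrb had 79.6, 457.1 and 368.5, below the floor at 0.0 h. The 4 erythroid markers on the array summed to 9066, 8423 and 10013, and the 3 platelet markers to 3605, 5069 and 5002, with Pf4 and Itga2b above the floor. Platelet precursors also make Vwf, and the part of platelets in its values was not tested. Pinealocyte markers had 6 of 7 above the floor on some array, with a sum of 50586, 57041 and 44616. Asmt, the last enzyme of melatonin synthesis, had 5746, 13849 and 9178 and was 2.41-fold higher at 0.1 h than at 0.0 h, the 1 of 5 measured at least 2-fold higher. Tph1 and Drd4 were lower in that comparison, at -0.38 and -0.66 on the log2 scale. Pdc and Sag were higher, at 0.24 and 0.10. A second Sag probe set, with 686.9, 1626 and 360.3, gave 1.24 there and -2.17 for 1.0 h over 0.1 h. Drd4 was at 0.99 for 1.0 h over 0.1 h, and past 2-fold as deposited and with quantile scaling, at 1.08 and 1.03. Pdc, the phosducin gene, had 19481, 23079 and 9173. It was 2.12-fold lower at 1.0 h than at 0.0 h, 1 of 5, and 2.52-fold lower at 1.0 h than at 0.1 h, 1 of 6. Under spike-in scaling these Pdc differences were under 2-fold, at -0.89 and -0.86 on the log2 scale, and Asmt lay at the limit without passing it, at 1.00. Of 6 chromaffin markers on the array, Pnmt, with 610.6, 656.8 and 514.7, and Chgb, with 64520, 61057 and 48390, were above the floor on all arrays. Th, Dbh, Phox2a and Slc18a1 were below it on all arrays. The part of adrenal medulla in these samples, whose label names that tissue, was not tested.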

How the data were processed

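The deposited file holds 1 linear intensity per probe set and array, 8799 probe sets on 3 arrays; how probes were summarised and background was treated, and with which software, is not given in the sources used. The authors had scaled the arrays, since the deposited intensity means without the highest and lowest 2% were equal at 2499.9. The 59 control probe sets were left out. Platform annotation gave 1 symbol to 7006 probe sets, several to 308 and none to 1426; 6985 of the 7006 matched a RefSeq gene of GRCr8 by gene ID, which changed 0 symbols. Those with several were left out.

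Log2 intensities were median-scaled, the floor was set, and arrays were shifted to equal medians over probe sets above it (0.008, 0.040 and -0.048 from the deposited values in label order). A gene was read on its brightest probe set by mean log2 over the arrays. With 1 array per label there was no test, and the number of arrays limits precision. SDs come from the median absolute deviation across genes and describe these arrays. The steps were tested on simulated data.

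The genes, lists and thresholds were chosen with earlier results of these data known. Named genes were the 8 genes, genes of the related lists at least 2-fold apart (otherwise the brightest 2), and the 3 nearest patterns to a gene at least 2-fold apart; cell type markers and others printed, such as Ly6i, F3, Ece1, Ezr, Ncam1, B2m, Stat2, Mx1, Itgb1, Itgam, Irf1, Nfkb1, Tnf and Il4, were chosen after their values were seen. Alternatives were deposited values, quantile and cyclic loess normalisation (limma 3.58.1, R 4.3.3), spike-in scaling, floors at the 20th and 60th percentile, and the mean or the second-brightest probe set of a gene. The second-brightest was taken after probe sets with names ending in _g_at were left out. Python 3.11.15 was used otherwise.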

Additional observations from a re-analysis of the deposited data

How the results depend on the processing

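Ly6c kept its direction under every scaling and floor that left it measured, and for 1.0 h and 0.1 h over 0.0 h it stayed at least 2-fold higher there. The number of genes of the 8 at least 2-fold apart between 0.1 h and 0.0 h, 1 of 5, was 3 of 7 with the floor at the 20th percentile (Ly6c higher, Pecam1 and Vwf lower), 0 of 3 at the 60th, 2 with probe sets averaged (Ly6c and Icam1) and 0 on second-brightest probe sets, which left Vcam1 alone. Between 1.0 h and 0.0 h it was 0 of 4 at the 60th percentile, 2 averaged and 0 on second-brightest probe sets. Between 1.0 h and 0.1 h it was 2 as deposited, 2 under spike-in scaling and 1 at the 20th percentile, against 0. The medians for 0.1 h over 0.0 h and 1.0 h over 0.1 h were 0.66 and -0.73 on the second-brightest probe set of Vcam1; averaging gave 0.13 for the first. At the 60th percentile 3 of the 11 probe sets were above the floor on all arrays, against 6, because the floor was higher. Spike-in scaling turned the sign of the brighter Vcam1 probe set and of D00913_at of Icam1 between 1.0 h and 0.1 h, to 0.30 and 0.17, and of Pecam1 between 1.0 h and 0.0 h, to 0.07; that scaling moves all probe sets of an array by 1 factor. Over all genes, the 20th percentile floor gave 266 higher and 293 lower, 177 and 200, and 257 and 264 in the 3 comparisons. It left 3784, 3804 and 3833 genes measured. The 60th percentile floor gave 97 and 95, 32 and 48, and 76 and 106 over 2153, 2180 and 2185 genes. Fewer genes were measured with a higher floor by definition, since a gene was read only where both arrays lay above it. The share at least 2-fold apart also moved with the floor, and the cause of that was not tested. Second-brightest probe sets, without those ending in _g_at, gave 36 and 5, 16 and 8, and 6 and 23 over 402, 404 and 433 genes. The cause was not tested. Averaged probe sets gave 177 and 142, 108 and 85, and 131 and 152. No paired analysis was possible because each time label has 1 array, and for that reason no array could be left out.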
